A study of Homo sapiens with 9 samples.

Results

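The 10 genes described here encode amino acid transporters of the plasma membrane, or the subunit that carries them there: SLC3A2, SLC7A5, SLC7A6, SLC7A1, SLC1A5, SLC1A4, SLC38A1, SLC38A2, SLC6A9 and SLC43A1. They were listed by name and not by a cutoff on their values, though with earlier results of these data known, from the 62710 genes of the deposited table, and all 10 were among the 15230 genes with a mean normalized read count of at least 10 that were tested. RNA was sequenced from A375R, a single human melanoma line derived from A375 that is resistant to the BRAF inhibitor PLX4032, in 3 libraries per treatment and 9 in all. The study's methods give PLX4032 as part of the culture medium of A375R, and the sample labels do not name it. Cultures were given DMSO, the solvent control, or 1 of the compounds VHL-r and R4VPL3-1, each at a dose of 10 µM and for a time of 2 h. VHL-r is the moiety that binds the ubiquitin ligase VHL, and R4VPL3-1 joins that moiety through a linker to a binder of the ubiquitin ligase RNF4, so the compounds differ in the linker and the RNF4 binder. In the sample labels the R4VPL3-1 libraries carry the name L3linker_1, the VHL-r libraries VHL and the control libraries WT with no dose, and the header of DMSO replicate 1 lacks the 2hr mark that the other DMSO headers carry. The study's methods describe the libraries as independent biological repeats of 1 line, so the p-values below measure the spread between cultures of these cells.

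Animal cells cannot make the essential amino acids and take them up through families of membrane carriers. The heavy chain SLC3A2 (CD98, 4F2hc) does not transport by itself but brings light chains such as SLC7A5 (LAT1) and SLC7A6 (y+LAT2) to the cell surface, where they exchange 1 amino acid for another. Sodium-coupled carriers such as SLC38A2 (SNAT2) and exchangers such as SLC1A5 (ASCT2) supply the glutamine and small neutral amino acids that this exchange consumes. Several of these genes are textbook targets of ATF4, the transcription factor of the response to amino acid shortage, which pairs with C/EBP proteins on amino acid response elements, and of MYC, which binds E-boxes.

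With R4VPL3-1, transcripts of SLC38A2, SLC3A2 and SLC1A5 rose against DMSO and those of SLC1A4, SLC7A5 and SLC7A6 fell, the largest change being 1.24-fold. With VHL-r, SLC1A5 rose and SLC7A6 fell, and SLC38A2 alone separated R4VPL3-1 from VHL-r. Thus 3 of 10 transporters rose and 3 of 10 fell with R4VPL3-1, calls being made in limma where the p adjusted by the Benjamini-Hochberg method did not exceed 0.05. Of all 15230 genes tested 24.9% passed in this comparison, 13.1% upward and 11.8% downward. The SLC7A5 call with R4VPL3-1 was lost under 13 of 21 alternative analyses, DESeq2 among them. With VHL-r 1 of 10 rose and 1 of 10 fell, where 19.8% of all genes passed, 10.3% upward and 9.51% downward. Between R4VPL3-1 and VHL-r 1 of 10 transporters was higher and 0 were lower, where 1.87% of all genes passed, 1.14% upward and 0.729% downward. The count of 0 was 0 also at an unadjusted p below 0.05, in edgeR and in DESeq2. The median log2 fold change of the 10 transporters was -0.054 with VHL-r and -0.13 with R4VPL3-1 against DMSO and -0.0069 between the compounds, while that of all genes tested was -0.0045, -0.0063 and -0.0056. Regardless of sign, the median size of the transporters' changes was 0.097, 0.161 and 0.065, near the 0.123, 0.138 and 0.070 of all genes tested. Both comparisons with DMSO use the same 3 control libraries, so they are not independent of each other.

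The DNA around the transcription starts is shown because the transcripts of ATF4 and MYC also changed in these cells, as described further on, and the motifs they bind can be looked up in it. For all 10 transporters RefSeq gives at least 1 start, 17 in all, on GRCh38.p14, and the 300 bases around each of the 17 were identical to the genome sequence at the same place. The window searched ran from 250 bases before to 1500 bases after each start, on both strands, for the amino acid response element core TGATGNAA and for the E-box CACGTG, which do not overlap in the sequences below. The core was found near 8 of 10 transporters, and near 24.2% of all 27305 genes with a RefSeq start. The 10 genes were listed as transporters of which several are driven by ATF4, so their share is not independent of how they were chosen. The E-box was found near 5 of 10, and near 26.0% of all genes. An amino acid response element in the first intron of SLC38A2 is known from earlier work, and this gene is shown first because it alone separated the compounds. The sites below are 30 bases each on the strand of the gene, written 5′ to 3′, with the core in capitals (TTNCATCA where it lies on the other strand).
SLC38A2, chr12:46372042-46372071: gacgatcgataTTGCATCAgttttctttcc
SLC3A2, chr11:62881725-62881754: tgcaggactccTTACATCAgctcctctgag
SLC7A5, chr16:87868808-87868837: tccctgcatccTTGCATCActacgcccctg
SLC7A1, chr13:29595139-29595168: ggcgtggtgcaTGATGCAAcaccgagtgag
SLC1A5, chr19:46784893-46784922: gaggaagtggcTGATGCAAgctgtccaggg
SLC1A4, chr2:64989381-64989410: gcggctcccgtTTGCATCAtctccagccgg
SLC38A1, chr12:46266502-46266531: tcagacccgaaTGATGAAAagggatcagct
SLC6A9, chr1:44030247-44030276: cacgtggcggcTGATGTAAcgcccgtgccc

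Measured from the start nearest to it, the printed core lay 714 bases inside SLC38A2, 682 inside SLC7A5 and 532 inside SLC7A1, each in intron 1 of the canonical transcript. In SLC3A2 it lay 38 bases after an inner start, also within intron 1 of the canonical transcript. In SLC1A4 it began 7 bases before a start. In SLC38A1 and SLC1A5 it began 4 and 97 bases before an inner start, within intron 1 of the canonical transcript. The windows of the other SLC1A5 starts held no core. The SLC6A9 core printed lay 1198 bases inside, in intron 1. SLC7A1 and SLC6A9 each held another core closer to the start, not printed, 8 and 76 bases inside and in untranslated sequence of exon 1. A further core, also not printed, lay 1196 bases after a start of SLC38A1 and 1210 bases after a start of SLC3A2. Of the 8 transporters with the core, 3 rose with R4VPL3-1 (SLC38A2, SLC3A2, SLC1A5), 2 fell (SLC7A5, SLC1A4) and 3 passed the test in neither direction (SLC7A1, SLC38A1, SLC6A9). SLC7A6, which fell, and SLC43A1 held none in this window. Within the 300 bases around a start, an E-box was found in 3 of 10 transporters and in 8.77% of all genes, and those of SLC7A5 and SLC43A1 are printed with the E-box in capitals.
SLC7A5, chr16:87869619-87869648: gccggacgacgCACGTGctccgagctgggc
SLC43A1, chr11:57515796-57515825: agcgggcgagtCACGTGcgcgtgaaactcg

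The 250 bases before the start are printed whole for SLC7A5, the most abundant of the transcripts, with its E-box in capitals, and for SLC38A2, whose upstream window held neither motif. The share of G and C in these windows was 79.6% for SLC7A5 and 73.6% for SLC38A2, with a median of 58% over 34796 distinct starts. A match describes the letters and does not show binding.
SLC7A5, chr16:87869508-87869757, minus strand: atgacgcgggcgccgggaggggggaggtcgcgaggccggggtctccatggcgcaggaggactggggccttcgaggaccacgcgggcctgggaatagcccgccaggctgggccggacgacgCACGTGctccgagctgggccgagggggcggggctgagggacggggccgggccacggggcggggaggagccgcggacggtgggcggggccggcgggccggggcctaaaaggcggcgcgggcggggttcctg
SLC38A2, chr12:46372774-46373023, minus strand: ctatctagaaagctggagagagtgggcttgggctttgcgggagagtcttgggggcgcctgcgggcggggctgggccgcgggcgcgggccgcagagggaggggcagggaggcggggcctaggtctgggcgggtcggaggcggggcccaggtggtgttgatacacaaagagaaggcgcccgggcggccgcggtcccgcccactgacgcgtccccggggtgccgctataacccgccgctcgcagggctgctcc

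Transcript levels of the 10 transporters spanned nearly 2 orders of magnitude. Per kilobase of the canonical transcript, the mean normalized read count over the 9 libraries was 11253 for SLC7A5 and 7572 for SLC3A2, its heavy chain. SLC1A5 followed with 4414, SLC38A2 with 1794 and SLC1A4 with 1103 normalized reads per kilobase. SLC7A1 and SLC38A1, at 854 and 845 per kilobase, overlapped over the libraries and could not be ordered. SLC7A6 had 477, SLC43A1 222 and SLC6A9 133 per kilobase. For every other pair of neighbours in this order the lowest library of the upper gene lay above the highest library of the lower gene. The spread among the 3 libraries of a treatment was between 0.999% and 12.7% (coefficient of variation), and no value rests on fewer than 373 reads.

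**Figure D1:**
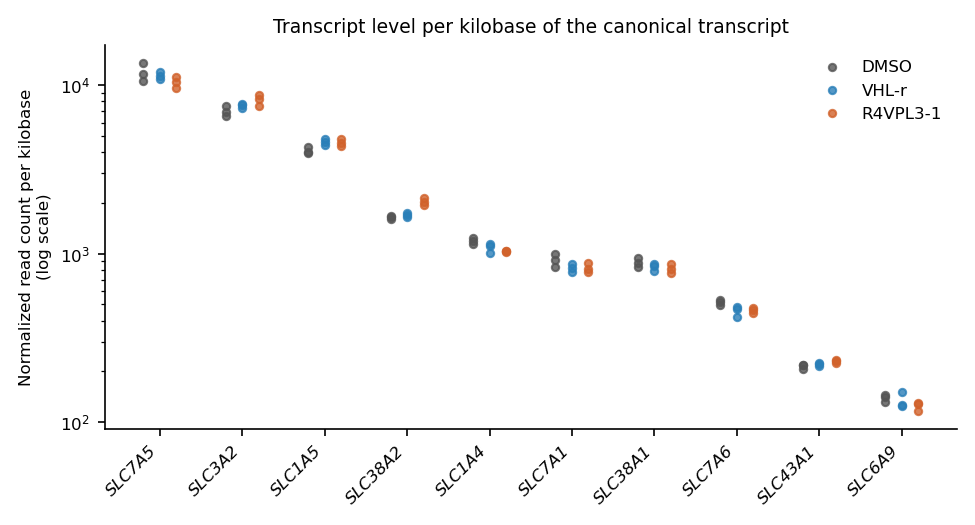
Transcript level of each transporter in the 9 libraries, as normalized read count per kilobase of the canonical transcript on a log axis, with 1 point per library and a colour per treatment. SLC7A5 and SLC3A2 lie at the top, SLC7A1 and SLC38A1 overlap, and the differences between transporters are far larger than those between treatments.

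The heavy chain SLC3A2 (ENSG00000168003, chromosome 11, 62856004 to 62888880, plus strand) had 14126, 13048 and 12353 normalized reads in DMSO replicates 1 to 3. It had 13858, 14599 and 14281 with VHL-r and 15529.96, 16483 and 14179 with R4VPL3-1. All R4VPL3-1 libraries lay above all DMSO libraries, replicate 3 only just, whereas the VHL-r libraries overlapped both groups. SLC3A2 rose with R4VPL3-1 by 0.22 on the log2 scale (1.17-fold, 95% interval 1.08 to 1.26, limma adjusted p 0.00357). With VHL-r its log2 fold change was 0.11 (SE 0.054, adjusted p 0.153), and without DMSO replicate 1 it was 0.17, with an adjusted p of 0.0425. The difference between the compounds was 0.11 (95% interval -0.0021 to 0.22, adjusted p 0.517).

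SLC7A5, the light chain that imports leucine and other large neutral amino acids (ENSG00000103257, chromosome 16, 87830023 to 87869507, minus strand), had 61735, 52953 and 48184 normalized reads in DMSO. It had 51812, 54862 and 49639.8 with VHL-r and 47357, 50938 and 43923 with R4VPL3-1. DMSO replicate 1 stood far above every other library, and all groups overlapped. SLC7A5 fell with R4VPL3-1 by 0.19 on the log2 scale (0.876-fold, 95% interval 0.794 to 0.967, adjusted p 0.0461), the weakest call among the transporters. It was lost under 13 of 21 alternatives, among them DESeq2 (adjusted p 0.204), limma with robust variances (0.186) and limma with TMM scaling (0.0509). Without DMSO replicate 1 the log2 fold change was -0.094 (adjusted p 0.296), and without R4VPL3-1 replicate 3 it was -0.14 (adjusted p 0.184). Leaving out DMSO replicate 2, VHL-r replicate 1 or 2 or R4VPL3-1 replicate 1 gave adjusted p-values of 0.0797, 0.0534, 0.0593 and 0.0867. With VHL-r its log2 fold change was -0.053 (adjusted p 0.667), or 0.044 without DMSO replicate 1, and between the compounds it was -0.14 (95% interval -0.28 to 0.0047, adjusted p 0.527). Of the 100-base windows of SLC7A5 exons, 1.74% are shared with SLC7A5P2 or an unnamed gene, so a small part of its reads may be split.

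Within a library, the ratio of SLC7A5 to SLC3A2 does not depend on how the libraries were scaled, and it separated all 3 treatments. Per kilobase it was 1.81, 1.68 and 1.61 in DMSO, 1.55, 1.55 and 1.44 with VHL-r and 1.26, 1.28 and 1.28 with R4VPL3-1. No library of one treatment overlapped another, and DMSO replicate 1, which stood apart in SLC7A5, was highest here too. The means were 1.70 ± 0.0989, 1.51 ± 0.0652 and 1.27 ± 0.0108 (SD, n = 3), so the ratio was 0.749 of its DMSO value with R4VPL3-1 and 0.89 with VHL-r. An exact two-sided permutation test gave p = 0.1 for each pair of treatments, the smallest it can give with 3 against 3 libraries (0.171 adjusted over 12 comparisons of ratios and sums). These ratios were chosen after the values were seen.

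SLC7A6, another light chain of SLC3A2, exchanges cationic for neutral amino acids (ENSG00000103064, chromosome 16, 68264516 to 68301823, plus strand). It had 3337, 3231 and 3096 normalized reads in DMSO, 3008, 2943 and 2616 with VHL-r, and 2970.2, 2902 and 2764 with R4VPL3-1. Every library with either compound lay below every DMSO library, and the compounds overlapped each other. SLC7A6 fell with VHL-r by 0.18 on the log2 scale (0.885-fold, 95% interval 0.818 to 0.958, adjusted p 0.026) and with R4VPL3-1 by 0.16 (0.894-fold, adjusted p 0.0333). Without DMSO replicate 1, DMSO replicate 2 or VHL-r replicate 3 the adjusted p with VHL-r was 0.109, 0.0774 and 0.146, with a log2 fold change of -0.11 in the last case. With R4VPL3-1 it was 0.129, 0.0906, 0.0668 and 0.108 without DMSO replicates 1 and 2 and R4VPL3-1 replicates 2 and 3. Between the compounds the difference was 0.014 (95% interval -0.10 to 0.13). Of the exon length of the canonical SLC7A6 transcript, 59.9% lies opposite exons of other genes, and the authors counted reads by strand.

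SLC7A1 (CAT1), the carrier of arginine and lysine (ENSG00000139514, chromosome 13, 29509414 to 29595688, minus strand), had 7348, 6749 and 6084 normalized reads in DMSO. It had 6389, 6023 and 5699 with VHL-r and 5947, 6449 and 5749 with R4VPL3-1. DMSO replicate 3 lay within the range of both compounds, and DMSO replicate 1 was again the highest library. The log2 fold change was -0.15 with either compound (SE 0.061) and did not pass, at adjusted p 0.0836 with VHL-r and 0.0762 with R4VPL3-1. Without DMSO replicate 3 it was -0.22 in both comparisons and passed, at adjusted p 0.0112 and 0.00958. It also passed without VHL-r replicate 1 (-0.20, adjusted p 0.0496) and without R4VPL3-1 replicate 2 (-0.20, adjusted p 0.0393). Between the compounds SLC7A1 differed by 0.0026 (95% interval -0.12 to 0.13).

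SLC1A5, a sodium-dependent exchanger of glutamine and other neutral amino acids (ENSG00000105281, chromosome 19, 46774883 to 46788594, minus strand), had 12374, 11494 and 11443 normalized reads in DMSO. It had 12778, 13198 and 13838 with VHL-r and 13087, 13770.4 and 12515 with R4VPL3-1. All 6 libraries with a compound lay above the 3 DMSO libraries. SLC1A5 rose with VHL-r by 0.17 on the log2 scale (1.13-fold, 95% interval 1.05 to 1.21, adjusted p 0.0107) and with R4VPL3-1 by 0.16 (1.11-fold, adjusted p 0.0164). Without DMSO replicate 2 or VHL-r replicate 3 the VHL-r value was 0.16 and 0.14, with adjusted p-values of 0.0603 and 0.0526. Without DMSO replicate 2, DMSO replicate 3 or R4VPL3-1 replicate 2 the adjusted p with R4VPL3-1 was 0.0812, 0.0676 and 0.103. Between the compounds the difference was -0.016 (95% interval -0.11 to 0.081). Exons of other genes lie opposite 27.6% of the exon length of the canonical SLC1A5 transcript.

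Its paralog SLC1A4 (ASCT1), which carries alanine, serine, cysteine and threonine (ENSG00000115902, chromosome 2, 64988477 to 65023865, plus strand), moved the other way. It had 5196, 5454 and 5630.1 normalized reads in DMSO, 4584, 5221 and 5047 with VHL-r, and 4671.5, 4758 and 4748 with R4VPL3-1. The R4VPL3-1 libraries lay close together and below every DMSO library, while VHL-r replicate 2 reached into the DMSO range. SLC1A4 fell with R4VPL3-1 by 0.20 on the log2 scale (0.871-fold, 95% interval 0.811 to 0.936, adjusted p 0.0047). With VHL-r its value was -0.13 (SE 0.049, adjusted p 0.0623), and it passed without DMSO replicate 1 (-0.16, adjusted p 0.042) and without VHL-r replicate 2 (-0.17, adjusted p 0.0403). Between the compounds it was -0.065 (95% interval -0.17 to 0.038). The ratio of SLC1A5 to SLC1A4 per kilobase was 3.44 ± 0.291 in DMSO, 4.25 ± 0.219 with VHL-r and 4.40 ± 0.207 with R4VPL3-1 (SD, n = 3). Both compounds lay above DMSO without overlap (exact permutation p = 0.1, two-sided), and they overlapped each other (exact permutation p = 0.4).

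SLC38A2, which imports small neutral amino acids together with sodium (ENSG00000134294, chromosome 12, 46358188 to 46372773, minus strand), had 7691, 7951 and 8031 normalized reads in DMSO. It had 8354, 7936 and 8139 with VHL-r and 10280.5, 9369 and 9684 with R4VPL3-1. The R4VPL3-1 libraries lay more than 1000 normalized reads above every other library, and VHL-r overlapped DMSO. SLC38A2 rose with R4VPL3-1 by 0.31 on the log2 scale against DMSO (1.24-fold, 95% interval 1.16 to 1.32, adjusted p 1.56e-05) and by 0.26 against VHL-r (1.20-fold, 95% interval 1.13 to 1.28, adjusted p 0.000872). It was called in both comparisons under all 21 alternatives, with adjusted p-values of up to 0.00019 and 0.0169. With VHL-r its value was 0.045 (95% interval -0.045 to 0.14, adjusted p 0.538). Against VHL-r, 86.9% of all genes tested changed less in size than SLC38A2.

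Its paralog SLC38A1 (SNAT1), a carrier of glutamine (ENSG00000111371, chromosome 12, 46183063 to 46270017, minus strand), had 7588, 7123 and 6742 normalized reads in DMSO. It had 7057, 6861 and 6379.9 with VHL-r and 6596, 6225 and 7018 with R4VPL3-1. The 3 groups overlapped. Its log2 fold change was -0.080 with VHL-r (adjusted p 0.346) and -0.11 with R4VPL3-1 (adjusted p 0.133), and the latter passed only without R4VPL3-1 replicate 3 (-0.16, adjusted p 0.0416). Between the compounds it was -0.033 (95% interval -0.14 to 0.077). The ratio of SLC38A2 to SLC38A1 per kilobase was 1.87 ± 0.15 in DMSO and 2.04 ± 0.105 with VHL-r (SD, n = 3). With R4VPL3-1 it was 2.63, 2.54 and 2.33 in replicates 1 to 3, on average 1.34 times the DMSO value. These libraries lay above all others (exact permutation p = 0.1 against either group), and VHL-r overlapped DMSO (exact permutation p = 0.3).

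The remaining transporters were the least abundant, and neither passed in any comparison. SLC6A9 (GlyT1), the sodium- and chloride-coupled glycine carrier (ENSG00000196517, chromosome 1, 43991500 to 44031467, minus strand), had 450.4, 424 and 462 normalized reads in DMSO, 405, 400.2 and 485 with VHL-r and 408, 371 and 419 with R4VPL3-1. The R4VPL3-1 libraries lay below the DMSO libraries, replicate 3 by a few reads, and VHL-r replicate 3 was the highest of all. Its log2 fold change with R4VPL3-1 was -0.16 (SE 0.088, adjusted p 0.21). SLC43A1 (LAT3), which carries branched-chain amino acids without a heavy chain (ENSG00000149150, chromosome 11, 57484534 to 57515780, minus strand), had 518, 552 and 546 in DMSO, 552, 544 and 566 with VHL-r and 567, 583 and 589.9 with R4VPL3-1. The R4VPL3-1 libraries lay above all others, R4VPL3-1 replicate 1 by less than 1 normalized read over VHL-r replicate 3. Its log2 fold change with R4VPL3-1 was 0.11 against DMSO (SE 0.068, adjusted p 0.281) and 0.065 against VHL-r (adjusted p 0.881).

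**Figure D2:**
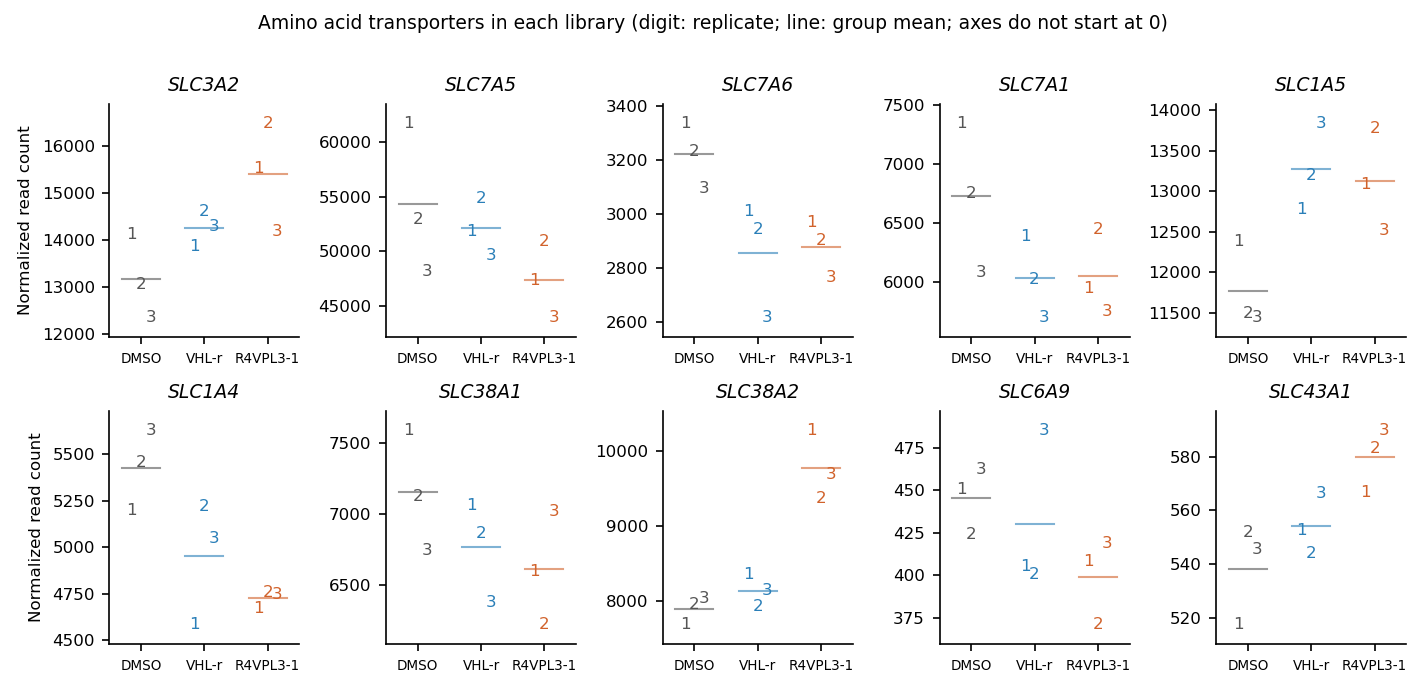
Normalized read count of each transporter in each library, with the digit giving the replicate, a line at the group mean and axes that do not start at 0. SLC38A2 stands apart with R4VPL3-1, SLC1A5 is higher and SLC7A6 lower with both compounds than in DMSO, and DMSO replicate 1 is far above the other libraries in SLC7A5.

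Added together, normalized reads of the 10 transporters were 110639 ± 9011 in DMSO, 109359 ± 2988 with VHL-r and 106951 ± 5146 with R4VPL3-1 (SD, n = 3). The sums overlapped between all groups, at exact permutation p-values of 0.8 and 0.6 for VHL-r and R4VPL3-1 against DMSO and 0.5 between the compounds. DMSO replicate 1 had the highest sum at 120364. SLC7A5 held 41.7% ± 2.01 of the summed reads per kilobase in DMSO, 39.6% ± 1.18 with VHL-r and 36.3% ± 0.716 with R4VPL3-1. In bulk RNA a smaller number of cells that express a gene and less RNA in each cell cannot be told apart.

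**Figure D3:**
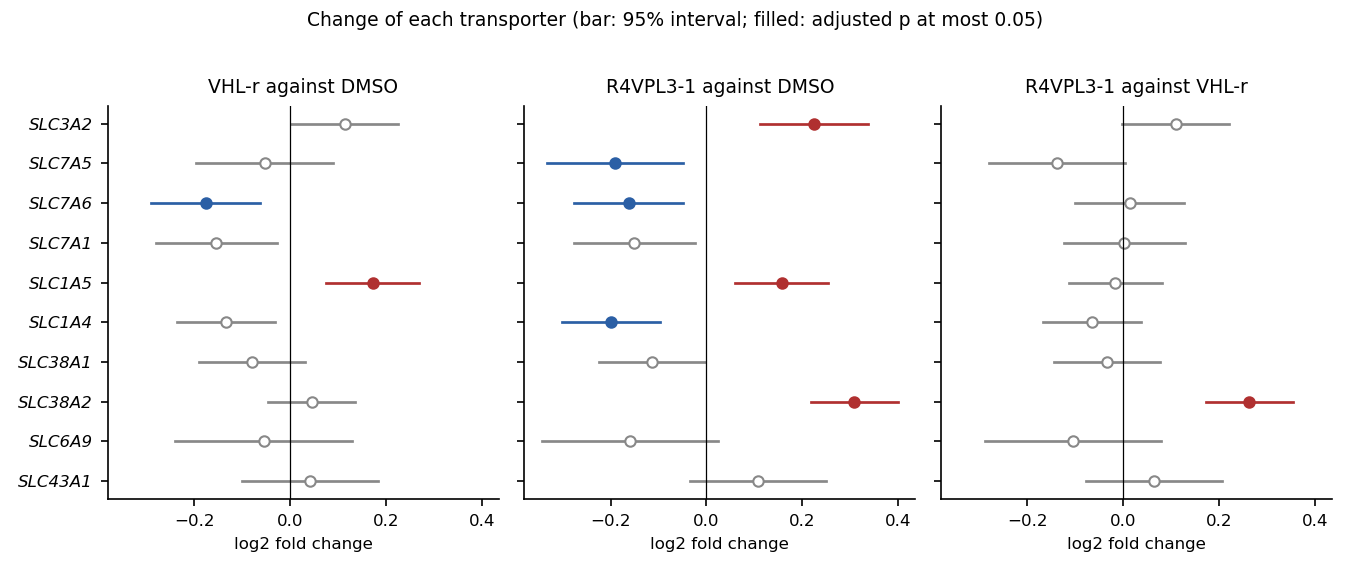
Log2 fold change of each transporter in the 3 comparisons, with 95% intervals from limma and filled points where the adjusted p was at most 0.05. With R4VPL3-1, 3 rose and 3 fell against DMSO, and SLC38A2 at 0.26 is the filled point between the compounds.

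For the 9 transporters that did not pass between R4VPL3-1 and VHL-r, the 95% intervals bound the difference and do not show that the compounds act alike. The widest was that of SLC6A9, from -0.29 to 0.080 on the log2 scale. The narrowest ran from -0.11 to 0.081 for SLC1A5. Those of SLC3A2, from -0.0021 to 0.22, and of SLC7A5, from -0.28 to 0.0047, each lay almost wholly on one side of 0.

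Of 26 further amino acid transporters of the plasma membrane, 10 were expressed highly enough to be tested, and 3 of them rose with R4VPL3-1 and 2 with VHL-r against DMSO. Thus 30% and 20% passed, near the 24.9% and 19.8% of all genes for a list of this size. SLC6A6, the taurine carrier, rose by 0.51 with R4VPL3-1 (adjusted p 1.26e-06) and by 0.40 with VHL-r (adjusted p 3.11e-05), more than any of the 10 transporters above. It had between 1833 and 2147 normalized reads in DMSO, 2536 to 2727 with VHL-r and 2642 to 2948 with R4VPL3-1, with no overlap between DMSO and either compound. SLC7A11, the cystine light chain of SLC3A2, had 671, 689 and 714 normalized reads in DMSO, 669, 667 and 732 with VHL-r and 949, 767 and 793 with R4VPL3-1. It rose by 0.27 with R4VPL3-1 against DMSO (adjusted p 0.0133), a call lost without R4VPL3-1 replicate 1, the highest library (0.17, adjusted p 0.121). Against VHL-r its value was 0.27 (adjusted p 0.0831). SLC7A2, a cationic amino acid carrier like SLC7A1, rose by 0.16 with VHL-r and by 0.17 with R4VPL3-1 (adjusted p 0.0467 and 0.0373). The VHL-r call was lost without any single library other than R4VPL3-1 replicate 3, and the R4VPL3-1 call without any other than VHL-r replicates 1 and 3. The highest adjusted p-values, 0.176 and 0.148, both came without DMSO replicate 1.

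Among carriers of inner membranes, 1 of 9 lysosomal and other intracellular transporters passed with VHL-r (11.1%, against 19.8% of all genes) and 2 of 10 mitochondrial carriers with R4VPL3-1 (20.0%, against 24.9%), shares near those of all genes for lists of this size. Of 9 tested transporters of lysosomes and other inner membranes, SLC66A1, the lysosomal exporter of cationic amino acids, fell with VHL-r by 0.21 (adjusted p 0.041), a call lost without any 1 of the 6 libraries compared (adjusted p 0.0597 to 0.119). With R4VPL3-1 0 of 9 passed, and 0 did at an unadjusted p below 0.05, in edgeR or in DESeq2. Of 10 tested mitochondrial amino acid carriers, SFXN3 and SLC25A44 fell with R4VPL3-1 by 0.20 and 0.13 (adjusted p 0.00698 and 0.0388). The first was lost without DMSO replicate 3 (adjusted p 0.054) and the second without any DMSO library, VHL-r replicate 2 or R4VPL3-1 replicate 1 or 3 (adjusted p 0.0555 to 0.173). With VHL-r 0 of 10 passed, and 0 did at an unadjusted p below 0.05, in edgeR or in DESeq2.

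Genes of the eIF2 kinase and ATF4 axis, which reports amino acid shortage and other stress, had larger changes than the transporters, with a median size of log2 fold change of 0.337 against 0.161 with R4VPL3-1. Over all genes tested that median size was 0.138. Of 20 axis genes tested, 9 rose and 2 fell with R4VPL3-1, 6 rose and 3 fell with VHL-r, and 7 were higher with R4VPL3-1 than with VHL-r. The share that passed was 55% with R4VPL3-1, 45% with VHL-r and 35% between the compounds. Of all genes, 24.9%, 19.8% and 1.87% passed. ATF4 itself had 6186 to 6425 normalized reads in DMSO, 7375 to 7756 with VHL-r and 9552 to 10208 with R4VPL3-1, 3 ranges that do not overlap. It rose by 0.65 with R4VPL3-1 and by 0.25 with VHL-r, and the difference of 0.40 between the compounds passed (adjusted p 2.62e-06). DDIT3, the stress transcription factor CHOP, rose by 2.15 and 0.48, and CHAC1, which degrades glutathione, by 2.61 and 0.94. DDIT4, an inhibitor of mTORC1, rose by 2.14 with R4VPL3-1 and fell by 0.53 with VHL-r, although under robust variance estimation the latter did not pass (adjusted p 0.158). ATF3 and PPP1R15A rose with R4VPL3-1 by 1.89 and 0.65. STC2, which encodes a secreted glycoprotein, went the other way, at -0.75 with VHL-r (adjusted p 3.81e-05) and -0.49 with R4VPL3-1 (adjusted p 0.00199). TRIB3, a pseudokinase, and PSAT1, an enzyme of serine synthesis, did not pass in any comparison. ASNS, listed with this axis, was at 0 in every library and could not be tested. ATF4 and, of the transporters, SLC38A2 were higher with R4VPL3-1 than with VHL-r, and the other 9 transporters did not pass between the compounds. A link between ATF4 and the transporters was not tested. The count of axis genes that fell with R4VPL3-1 was 1 without DMSO replicate 1 or 2 or R4VPL3-1 replicate 1.

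Of 33 tested genes by which mTORC1 senses amino acids, 7 rose and 4 fell with R4VPL3-1 and likewise with VHL-r, and 1 was higher with R4VPL3-1 than with VHL-r. The share that passed was 33.3% with either compound, against 24.9% of all genes with R4VPL3-1 and 19.8% with VHL-r. Between the compounds it was 3.03%, against 1.87%. The sestrins, which bind leucine or otherwise restrain mTORC1, were among those that rose: SESN3 by 2.09 with R4VPL3-1 and 2.06 with VHL-r, SESN2 by 1.91 and 1.39, and SESN1 by 0.42 and 0.31. The counts that fell ranged from 1 to 5 with R4VPL3-1 and from 1 to 4 with VHL-r on leaving out single libraries. A count of 1 came with VHL-r without DMSO replicate 1 or 3 or VHL-r replicate 1 or 2, and with R4VPL3-1 without DMSO replicate 1 or R4VPL3-1 replicate 1. A count of 2 came with VHL-r without R4VPL3-1 replicate 2, and with R4VPL3-1 without DMSO replicate 2 or R4VPL3-1 replicate 2. Of 11 tested genes of glutamine and branched-chain amino acid use, 2 rose and 1 fell with R4VPL3-1 and 3 rose with VHL-r. In both comparisons 27.3% passed, a share near the 24.9% and 19.8% of all genes for a list of this size. PPAT, which spends glutamine in purine synthesis, rose by 0.24 with either compound, and GOT1, the cytosolic aspartate aminotransferase, by 0.20 with either. The GOT1 call was lost without DMSO replicate 3 (adjusted p 0.111 with VHL-r and 0.085 with R4VPL3-1), without VHL-r replicate 2 (0.117) and without R4VPL3-1 replicate 2 (0.0693). The gene that fell, BCKDK, which restrains branched-chain amino acid breakdown, was at -0.18 and was not called without any 1 of the DMSO libraries or R4VPL3-1 replicate 1 or 3 (adjusted p 0.0533 to 0.0908, the highest without R4VPL3-1 replicate 3).

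Of 9 regulators of the MYC and MAX network, 2 rose and 3 fell with R4VPL3-1, and 3 rose and 3 fell with VHL-r. Thus 55.6% and 66.7% passed, against 24.9% and 19.8% of all genes. MYC had 1253, 1254 and 1049 normalized reads in DMSO, 379, 429.6 and 408 with VHL-r and 320.3, 401 and 321 with R4VPL3-1. It fell by 1.54 on the log2 scale with VHL-r and by 1.77 with R4VPL3-1 (adjusted p 1.86e-10 and 9.8e-12). The compounds overlapped each other, at a difference of -0.23 (95% interval -0.42 to -0.034, adjusted p 0.37). MXD1, which competes with MYC for MAX, rose by 1.21 and 1.71. The count that rose with VHL-r was 1 without DMSO replicate 2 or VHL-r replicate 3. The part of either regulator in the changes of the transporters was not tested.

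**Figure D4:**
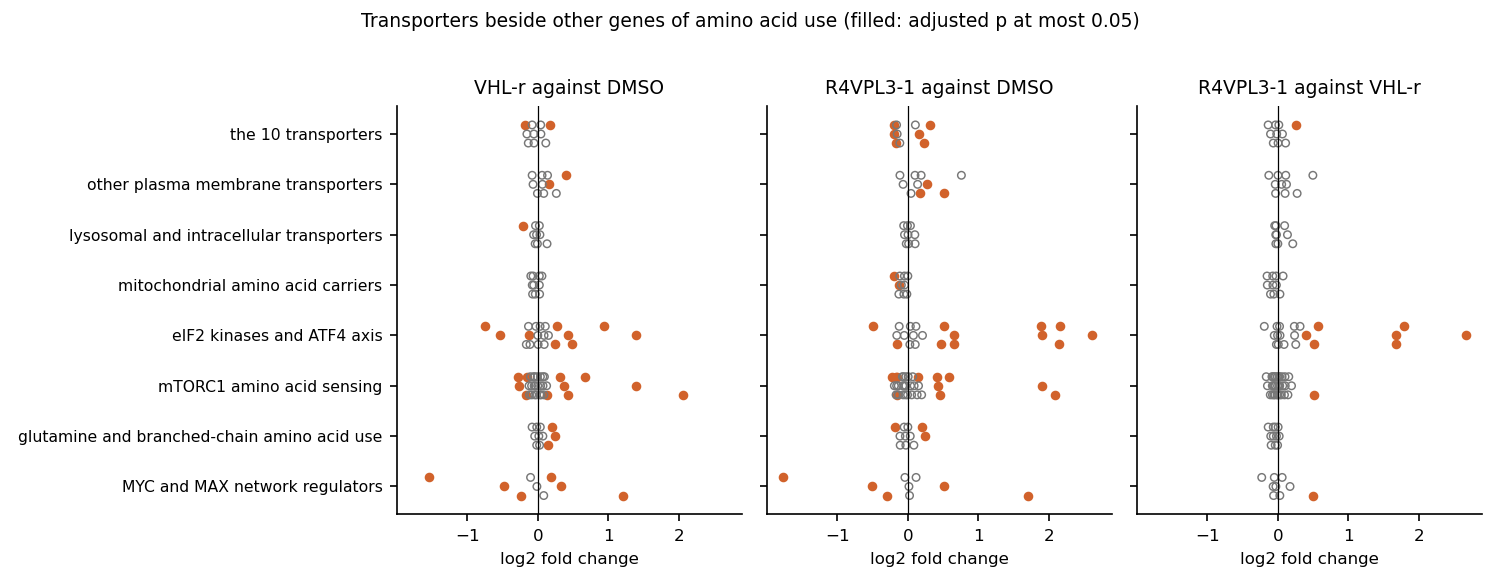
Log2 fold change of every tested gene of each list in the 3 comparisons, with filled points where the adjusted p was at most 0.05. The 10 transporters lie between -0.20 and 0.31 in all comparisons, whereas against DMSO genes of the ATF4 axis, mTORC1 sensing and the MYC network reach beyond 1 in size.

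By their pattern over the 9 libraries, the transporters did not form a single group. Between transporters, Pearson's r of log2 values was highest for SLC7A6 with SLC7A1 (0.86) and for SLC3A2 with SLC1A5 (0.83), and lowest for SLC7A5 with SLC43A1 (-0.83). SLC7A5 and its heavy chain SLC3A2 had an r of -0.021. These values are descriptions over 9 libraries that share 3 treatments. The tested genes whose pattern was most like that of SLC38A2 were FUT11 (r = 0.98), LINC00355 (0.98) and SNHG1 (0.97). Those most like SLC7A5 were BYSL (0.96), ACTG1 (0.96) and LRRC59 (0.95), and those most like SLC3A2 were PRMT7 (0.97), ZFYVE21 (0.97) and C10orf143 (0.95). For SLC7A1 they were BAZ1B, KPNB1 and THAP1, for SLC1A5 REEP4 and VCP, for SLC1A4 GOLGA7B, HYAL2 and MAP10, and for SLC38A1 TRMT6, DCTN5 and NUP155, with r from 0.95 to 0.99. For SLC6A9 they were VPS35L, RFTN2 and PAGE2, and for SLC43A1 KCNE4, OSER1-DT and HYAL1, with r from 0.92 to 0.98. For SLC7A6 an unnamed gene came first, followed by ANKLE2 and PLAA (0.97 and 0.96).

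The libraries held between 26435568 and 32085626 reads (median 28165279), with size factors from 0.934 to 1.10 and 2.14% to 2.59% of reads on mitochondrial genes. Of 11 melanoma markers 8 had a mean of at least 10, led by CSPG4, while MLANA was listed at 0 in every library. ASNS, FLCN, FNIP1 and BCKDHA of the lists above, among others, were also at 0 throughout. Whether a 0 means that no transcript was present was not tested. The summed level of the melanoma markers was 49557 to 52485 normalized reads in DMSO, 39015 to 45626 with VHL-r and 38152 to 42179 with R4VPL3-1. Of the 8 tested, 2 fell with VHL-r (25%, against 19.8% of all genes) and 3 with R4VPL3-1 (37.5%, against 24.9%). These shares are near those of all genes for a list of this size. SOX10 and MITF fell with both, by 0.79 and 0.71 on the log2 scale with VHL-r and by 1.06 and 0.77 with R4VPL3-1. SOX10 had 17007 to 17935 normalized reads in DMSO, 9133 to 11216 with VHL-r and 7900.4 to 8752 with R4VPL3-1, which makes up most of the difference in the sums. CSPG4 did not pass, at 0.0026 and 0.099. Markers of other cell types summed to 2207 to 2305 (keratinocyte, 3 of 5 at a mean of at least 10), 2259 to 3095 (fibroblast, 6 of 6) and 123 to 177 (leukocyte, 2 of 5) in DMSO. With VHL-r these sums were 2003 to 2203, 1987 to 4391 and 124 to 160, and with R4VPL3-1 they were 1915 to 2064, 2414 to 3069 and 91.5 to 136. Their part in the changes of the transporters was not tested.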

How the data were processed

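RNA of 3 DMSO, 3 VHL-r and 3 R4VPL3-1 cultures of A375R cells was sequenced as strand-specific poly(A) libraries with single reads of 100 bases. The study's methods name STAR for alignment to GRCh38 with its Ensembl annotation, htseq-count in reverse mode for counting, and DESeq2 for scaling. The values the authors deposited are a normalized signal: reads per gene divided by the DESeq2 (1.36.0, per the submitters' processing notes) size factor of the library, with 2 decimals. Reads on exons of more than 1 gene of the same strand are not counted by htseq-count. In GENCODE 44 no exon of the canonical transcripts of the 10 genes overlaps an exon of another gene on its strand. Exons of their other transcripts were not compared. Multiplying by the size factor, found from the smallest steps between values, gave back whole reads, and 100% of values up to 1000 reads came out within 0.1 of a whole number. Each transporter had at least 373 reads in every library.

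The main test was limma 3.58.1 (R 4.3.3) with the trend option on log2(value + 1), applied to genes whose mean reached 10 (15230 genes), in 1 single-factor fit of 9 libraries with Benjamini-Hochberg adjustment over all genes tested and calls at an adjusted p of at most 0.05. Fold changes are on this scale. The fit was tested on simulated data. Alternatives were pseudocounts of 0.1 and 5, no filter, a mean of at least 50, TMM, upper-quartile and non-mitochondrial scaling, edgeR 4.0.16, DESeq2 1.42.0 (both on whole reads), robust variances, a block for the replicate number, the 6 libraries compared, and each library left out in turn. Ratios were compared by exact permutation tests. Lengths and exons came from GENCODE 44 by gene identifier and starts from RefSeq (GRCh38.p14). The sample labels name the control libraries WT, and the series' design gives DMSO as the control. The members and the gene lists were chosen with earlier results of these data known. Named are the 10 transporters, from each list up to 6 called genes with the largest changes with ATF4, MYC and SLC7A11 in any case, and for each transporter the 3 genes with the highest Pearson correlation, of which 1 is not reported here. The marker genes named, TRIB3, PSAT1 and the genes named as listed at 0 were picked with their values in view.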

Additional observations from a re-analysis of the deposited data

How the results depend on the processing

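Over 21 alternatives, 583 of 630 values of the 10 transporters kept their direction and their side of the threshold, 27 lost and 11 gained the call, and 9, none of them called, changed sign. SLC38A2 in both R4VPL3-1 comparisons and SLC3A2 and SLC1A4 with R4VPL3-1 against DMSO were called under all 21. Leaving out single libraries gave 0 to 2 transporters higher and 0 to 2 lower with VHL-r, and 2 to 3 higher and 1 to 4 lower with R4VPL3-1, against DMSO. With R4VPL3-1, 1 was lower without a filter, where more genes are tested, and 1 with upper-quartile scaling. Values that changed sign are given with the range over single libraries left out: SLC7A5 with VHL-r (-0.14 without DMSO replicate 3 to 0.044 without DMSO replicate 1) and, between the compounds, SLC7A6 (-0.048 without VHL-r replicate 3 to 0.052 without VHL-r replicate 1, and -0.0092 without R4VPL3-1 replicate 1), SLC7A1 (-0.044 without R4VPL3-1 replicate 2 to 0.044 without VHL-r replicate 1, -0.038 without VHL-r replicate 3, and -0.0027 when scaled to the total without mitochondrial genes), SLC1A5 (-0.052 without R4VPL3-1 replicate 2 to 0.017 without R4VPL3-1 replicate 3, and 0.014 without VHL-r replicate 3) and SLC38A1 (-0.077 without R4VPL3-1 replicate 3 to 0.0093 without R4VPL3-1 replicate 2). SLC7A11 with VHL-r lay near 0 and changed sign with upper-quartile scaling (0.0039), the total without mitochondrial genes (0.012) and edgeR (0.000985), with a range of -0.048 to 0.019 over single libraries left out.

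With the replicate number as a replicate block, 3 transporters were lower with VHL-r (SLC7A1 and SLC1A4 besides SLC7A6), SLC7A1 was also lower with R4VPL3-1, and SLC7A11 passed between the compounds (adjusted p 0.0474). Same-numbered libraries had deviations correlated at -0.0056 to 0.121, and 6 of 9 libraries correlated best with one of their own number. The main fit, a single-factor one as in the study's methods, took no account of the numbers. Whether they mark a pairing or a batch was not tested. Among the longer lists, counts moved by more than 1.5 times without a filter (mTORC1 sensing, lower: 1 with VHL-r, 2 with R4VPL3-1), with upper-quartile scaling (2 with R4VPL3-1) and with the total without mitochondrial genes (1 with VHL-r). In the shorter lists, counts of up to 3 genes moved by 1 or 2. Between the compounds, 113 to 232 genes were higher and 68 to 126 lower on leaving out single libraries, against 174 and 111. The cause was not tested. The median of all genes moved by less than 0.1 under every scaling. Leaving out single libraries was also run for the ratios, a choice made after the values were seen, and with 3 libraries a group the shift it can give is under 1 SD by construction, so it says nothing of their stability.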
